A study of Mus musculus with 6 samples.

Results

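The transcripts described here are those of 9 enzymes and cofactors that write, keep, erase or use silent chromatin: Dnmt1, Uhrf1, Dnmt3a, Dnmt3b, Tet1, Tet2, Tet3, Trim28 and Setdb1. They were chosen by gene symbol, as potential effectors of the Piwi protein MIWI2, and all 9 were found among the 48577 genes of the count tables. The expression filter kept all 9, among 13175 genes. RNA came from lung cells of Miwi2-tdTomato mice on the C57BL/6 strain, in which the fluorescent protein tdTomato reports Piwil4, the gene of MIWI2. The sort took cells with EpCAM, a protein of epithelial surfaces, and without CD45, which leukocytes carry. The tdTomato-positive and tdTomato-negative fractions of this gate were sequenced from each of 3 mice, which gave 3 libraries per fraction, and the labels call both fractions multiciliated cells. Both fractions carry the reporter allele. The sources used here give no age of the mice and no sort on cilia. P-values measure the spread between these libraries.

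DNA methylation silences genes and transposons by adding a methyl group to cytosine in CpG pairs. DNMT3A and DNMT3B place new methyl groups, while DNMT1, brought to freshly replicated DNA by UHRF1, copies the pattern to the new strand. TET enzymes oxidise the methyl group and so start its removal. TRIM28, also called KAP1, is recruited by KRAB zinc finger proteins and brings in SETDB1, which methylates histone H3 at lysine 9. In fetal male germ cells of the mouse, MIWI2 loaded with piRNAs directs new DNA methylation to transposons.

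Counts in genes ranged from 5330584 to 6326395 per library, and a gene with no read could be at up to 0.475 to 0.585 CPM (counts scaled by library size with TMM factors), the level of 3 counts, which covers counting error only. On the first principal component 1 library lay far out, the tdTomato-positive one of mouse 1, at 79.4, with the other libraries at -35.2 to 7.80. Piwil4 was at 101, 95.7 and 111 CPM in positive libraries (in the order of mice 1, 2 and 3, as below), against 44.0, 29.97 and 45.6 CPM in the negative ones. The reporter had 37, 16 and 18 reads in the positive libraries and 0 in each negative library. Multiciliated cell markers summed to 5055 to 5404 CPM in positive and 5298 to 5507 CPM in negative libraries, over the 10 of 11 found in the files. Among them Foxj1, Tppp3 and Cfap126 were higher in all 3 mice and called with the mouse as a block (edgeR adjusted p = 0.000129, 0.000729 and 0.0301), though not without it. With the block 1.36% of all genes were called higher. Of the 9 multiciliated markers kept by the filter 5 lay above 0, and 2 were lower in all 3 mice. The 9 markers of alveolar type 2 cells, which make surfactant, summed to 551 to 1062 CPM in positive and 6090 to 7430 CPM in negative libraries. The 7 markers of club cells, secretory cells of the airway, summed to 8692 to 21704 CPM in positive and 4846 to 8206 CPM in negative libraries. With the block 6 of the 7 were called higher, where 1.36% of all genes were, and none without it, where 0.0455% were. Mitochondrially encoded genes took 19.5% to 23.8% of counts in positive and 31.7% to 43.6% in negative libraries, and 19093 to 19924 genes had a read in positive and 21380 to 22437 in negative libraries. With mitochondrially encoded genes left out, 0 members were called and their median log2 fold change was -0.26, as with them. The parts of these cell types and of the number of genes detected in the results below were not tested, and fewer cells of a type cannot be told apart from less RNA per cell.

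No member differed between the fractions at an adjusted p under 0.05. The quasi-likelihood test of edgeR called 0 of the 9, where it called 0.622% of all genes. At an unadjusted p under 0.05 it also had 0, where 10.7% of all genes did, as did DESeq2 and limma-voom, and with the mouse as a block there was 1, Tet1, where 15.9% of all genes were. The median log2 fold change of the members, tdTomato-positive over tdTomato-negative, was -0.26, the value of Dnmt1, beside 0.03 over all genes kept. Of the 9 members 4 lay above 0. Within mice 1, 2 and 3 the median of the members was -0.40, 0.18 and -0.073. When the positive library of mouse 1 was left out this median was 0.084, again the value of Dnmt1. For 5 members, Dnmt3a, Tet2, Tet3, Trim28 and Setdb1, the 95% interval of the log2 fold change lay within -1 to 1. The intervals of Dnmt1, Uhrf1, Dnmt3b and Tet1 reached past -1. These intervals leave out the pairing by mouse. With the mouse as a block that of Dnmt1 was -0.94 to 0.18, inside the bound. That of Tet1 was -3.39 to -0.037, below 0 (edgeR adjusted p = 0.299), and those of Uhrf1 and Dnmt3b still reached past -1.

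Per exon length the members spanned a wide range of levels, with Trim28 at the top and Tet1 at the bottom. Levels per length are CPM per kilobase of exon (RPKM), with the exons of all transcripts of a gene joined. Over all 6 libraries the means were 11.9 RPKM for Trim28, 9.02 for Tet2, 8.01 for Setdb1, 5.34 for Tet3, 4.31 for Dnmt1, 3.26 for Dnmt3a, 1.03 for Uhrf1, 0.449 for Dnmt3b and 0.166 for Tet1. Dnmt3a and Uhrf1 were the only neighbours in this order whose ranges over the 6 libraries did not touch. The other neighbours overlapped in range, so that Trim28 was above Tet2 in 5 of 6 libraries and Tet2 above Setdb1 in 4 of 6. The main division was thus between 6 members at 1.83 RPKM or above in each library and 3, Uhrf1, Dnmt3b and Tet1, at or below 1.58 RPKM. On the same scale Piwil4 averaged 19.1 ± 1.47 RPKM in positive and 7.41 ± 1.60 RPKM in negative libraries (SD, n = 3 each).

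**Figure D1:**
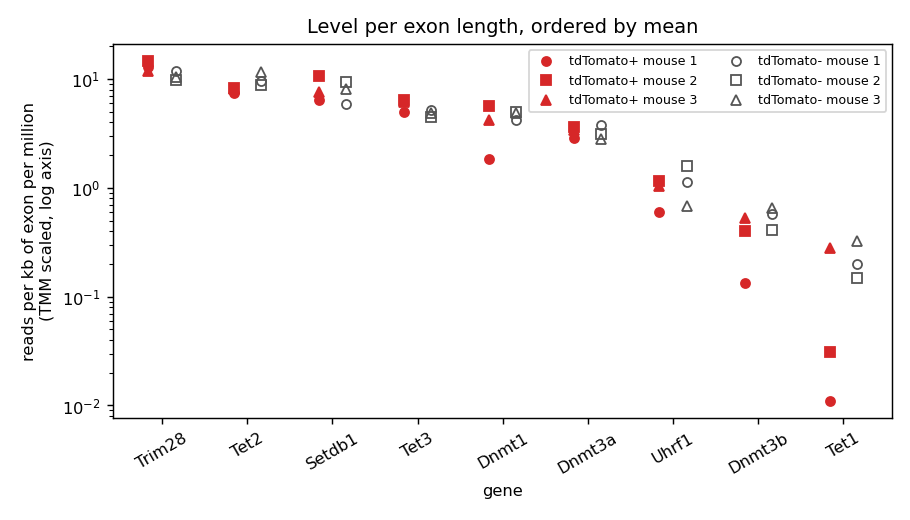
Level of each member in RPKM (log axis), for the 3 tdTomato-positive libraries (filled red) and the 3 tdTomato-negative libraries (open grey), ordered by the mean over all 6. Uhrf1, Dnmt3b and Tet1 lie below the other 6 members in both fractions, and Tet1 spreads most, with 2 positive libraries under 0.031 RPKM.

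Dnmt1 (chromosome 9, 20907209 to 20959888, minus strand, GRCm38) encodes the methyltransferase that copies CpG methylation after replication. It was at 13.5, 42.1 and 31.3 CPM in positive libraries, against 31.2, 37.1 and 35.7 CPM in the negative ones. The positive library of mouse 1 was the lowest of all 6, and the groups overlapped. The fitted log2 difference was -0.26 with an SE of 0.35 (edgeR, adjusted p = 0.828), with a 95% interval of -1.03 to 0.51. It was 0.084 when the positive library of mouse 1 was left out, which turned its sign.

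Uhrf1 (chromosome 17, 56303321 to 56323486, plus strand) encodes the protein that reads half-methylated CpG pairs and brings DNMT1 to them. It was low, with 15, 31 and 28 reads in the positive libraries and 25, 35 and 15 reads in the negative ones. These counts gave 2.53, 4.90 and 4.45 CPM in positive and 4.85, 6.72 and 2.92 CPM in negative libraries. The positive library was lower in mice 1 and 2 and higher in mouse 3. The fractions differed by -0.28 in log2 units, SE 0.51 (edgeR, adjusted p = 0.877).

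Dnmt1 and Uhrf1 share a promoter feature, shown here because both genes are used at replication. In the 250 bases before a RefSeq start site (GRCm38.p6), both hold the letters TTTCGCGC, a form of the E2F motif. Other start sites of both genes lack them. Of the 14 member windows 2 held the letters, and those at the most upstream starts of Dnmt1 and Uhrf1 did not. These letters, read on both strands, occur in 0.256% of 32851 such windows. No window of the other 7 members held them, and none of the 14 member windows held the related letters TTTGGCGC or TTTCCCGC, which occur in 0.417% and 0.895% of all windows. The 30 bases around each match are given with the match in capitals, on the strand of the gene; the Dnmt1 match reads on the opposite strand.
Dnmt1, chr9:20952824-20952853, minus strand: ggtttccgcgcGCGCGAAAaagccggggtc
Uhrf1, chr17:56304117-56304146, plus strand: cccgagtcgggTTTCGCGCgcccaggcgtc
The matches begin 219 and 185 bases before the start sites that the table lists. GENCODE M21 places the Dnmt1 match in the first exon of another Dnmt1 transcript and the Uhrf1 match in an intron. A match of letters is a description and does not show binding.

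Genes of replication and proliferation varied by mouse as well. Of 16 listed, the filter kept 10, and none was called by edgeR, with 2 at an unadjusted p under 0.05, beside 10.7% of all genes. DESeq2, with 245 genes called in all, called 2, Top2a and Mki67, both lower (adjusted p = 0.001 and 0.00797), and limma-voom called none. Their median log2 fold change was 0.044, and within mice 1, 2 and 3 it was -0.84, -0.47 and 0.23. Top2a, a topoisomerase of dividing cells, was at 0.338, 1.11 and 1.59 CPM in positive libraries, against 6.40, 12.5 and 5.65 CPM in negative libraries (log2 fold change -2.98 ± 0.62, SE; edgeR adjusted p = 0.0643). With the mouse as a block, which called 3.15% of all genes, it was the 1 called gene of the list (edgeR adjusted p = 0.00917), and this call was lost when mouse 2 (adjusted p = 0.0995) or mouse 3 (adjusted p = 0.0998) was left out. Mki67, which encodes the proliferation marker Ki-67, was at 1.01, 1.42 and 2.54 CPM in positive and 11.8, 20.7 and 1.95 CPM in negative libraries (edgeR adjusted p = 0.188). It was called lower under 5 of the 20 alternatives that kept it. Besides DESeq2 these were no filter, no negative library of mouse 3, and the block without mouse 1 or 3 (edgeR adjusted p = 9.51e-05, 0.0425, 0.0294 and 0.0340). With no filter, which called 413 genes, edgeR called Top2a lower too (adjusted p = 0.000693). Mcm7, a subunit of the replicative helicase, was at 19.4, 5.38 and 8.58 CPM in positive and 6.60, 6.72 and 5.46 CPM in negative libraries (edgeR adjusted p = 0.569). The part of dividing cells in the Dnmt1 and Uhrf1 values was not tested.

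Of the de novo enzymes, Dnmt3a was the abundant one. Dnmt3a (chromosome 12, 3806007 to 3914443, plus strand) was at 47.5, 60.3 and 56.9 CPM in positive and at 62.7, 51.9 and 46.4 CPM in negative libraries. The positive library was lower in mouse 1 and higher in mice 2 and 3. edgeR gave a log2 fold change of 0.03 with an SE of 0.20 (adjusted p = 0.969), with a 95% interval of -0.41 to 0.48.

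Dnmt3b (chromosome 2, 153649450 to 153687730, plus strand) had 4, 13 and 17 reads in positive and 15, 11 and 17 reads in negative libraries. In CPM this was 0.676, 2.06 and 2.70 in positive and 2.91, 2.11 and 3.31 in negative libraries. The 4 reads of the positive library of mouse 1 have an exact Poisson interval of 1.09 to 10.2 reads (95%, counting error only), and the 15 reads of its negative partner one of 8.40 to 24.7 reads, so the intervals overlap. The fitted log2 difference was -0.61 with an SE of 0.64 (edgeR, adjusted p = 0.769). Of the summed RPKM of the 3 methyltransferases, Dnmt3b held 4.45% ± 1.87 in positive and 6.44% ± 1.51 in negative libraries, and Dnmt3a held 46.1% ± 11.6 and 38.0% ± 5.30 (SD, n = 3 each). In 3 of 3 mice the Dnmt3b share was lower and the Dnmt3a share higher in the positive library (exact permutation of signs within mice, two-sided p = 0.25 for each, the smallest that 3 mice allow). The Dnmt1 share was lower in 3 of 3 mice too, at 49.5% ± 10.5 and 55.5% ± 5.31. In mouse 1 the Dnmt3a share was higher (59.2% against 43.9%) while the CPM of Dnmt3a and of Dnmt1 were both lower. In mouse 2 the Dnmt3a shares lay close, at 37.2% and 36.4%. Dnmt3l, the inactive cofactor of these enzymes in germ cells, had 5 reads in the positive library of mouse 3 and none in the other 5 libraries.

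**Figure D2:**
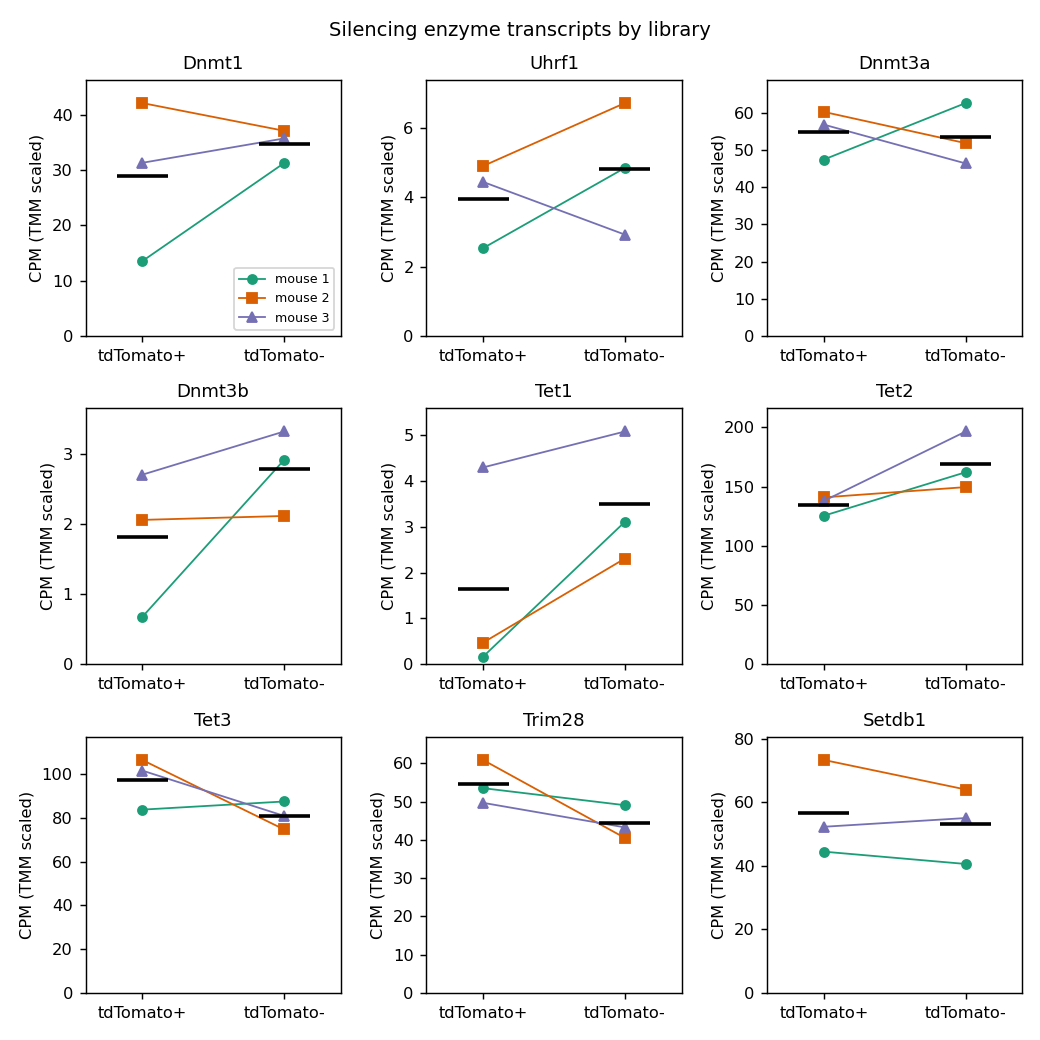
CPM of each member in each library, tdTomato-positive left and tdTomato-negative right, on axes from 0; lines join the libraries of 1 mouse and black bars are group means (n = 3 each). Tet2 lies lower and Trim28 higher in all positive libraries, and the low positive Dnmt1 and Dnmt3b values come from mouse 1.

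The TET genes did not share a direction. Tet2 and Tet3 made up nearly all of the family's transcript level, and Tet2 was lower and Tet3 higher on average in tdTomato-positive libraries. Neither gene passed the test alone.

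Tet2 (chromosome 3, 133463679 to 133545139, minus strand) had the smallest p of the 9 members. It was at 125, 141 and 138 CPM in the positive libraries, against 162, 149.6 and 197 CPM in the negative ones. All positive libraries lay below all negative ones, as was so, in either direction, for 17.3% of all genes, and lower for 9.02%. The fractions differed by -0.33 in log2 units, SE 0.17 (edgeR, adjusted p = 0.524), with a 95% interval of -0.70 to 0.04. Adjusted p was 0.317 with the mouse as a block.

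Tet3 (chromosome 6, 83362373 to 83459084, minus strand) was at 83.8, 106 and 102 CPM in positive and 87.5, 74.7 and 80.9 CPM in negative libraries. The positive library was higher in mice 2 and 3 and slightly lower in mouse 1. edgeR gave a log2 fold change of 0.26 with an SE of 0.18 (adjusted p = 0.624), with a 95% interval of -0.12 to 0.65.

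Tet1 (chromosome 10, 62804570 to 62908996, minus strand) had 1, 3 and 27 reads in positive and 16, 12 and 26 reads in negative libraries. The 1 read of the positive library of mouse 1 has an exact Poisson interval of 0.0253 to 5.57 reads, below the 9.15 to 26.0 reads around its negative partner, while mouse 3 had 27 reads in the positive and 26 in the negative library. The fitted log2 difference was -1.07 with an SE of 0.91 (edgeR, adjusted p = 0.706), and -1.71 ± 0.79 with the mouse as a block (SE; adjusted p = 0.299). Without the positive library of mouse 3 it was -3.34 (edgeR adjusted p = 0.209).

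The balance of Tet2 to Tet3, a ratio within each library that library scaling does not touch, was chosen after the counts were seen. Per exon length it was 1.48, 1.31 and 1.34 in the positive libraries of mice 1, 2 and 3, against 1.83, 1.98 and 2.40 in the negative ones. It was lower in the positive library in 3 of 3 mice, and the groups did not overlap. On the log2 scale the difference was -0.58 ± 0.27 (SD over 3 mice, exact permutation of signs within mice, two-sided p = 0.25, the smallest that 3 mice allow). Because of that choice, the direction, the separation and this p-value describe the ratio and do not test it. How many other pairs of genes separate in this way was not counted. Tet2 held 57.5% ± 1.88 of the family's summed RPKM in positive and 66.3% ± 2.74 in negative libraries, Tet3 held 41.8% ± 1.48 and 32.3% ± 3.10, and Tet1 held 0.734% ± 1.02 and 1.46% ± 0.437 (SD, n = 3 each). Alveolar type 2 markers, given above, were lower in the positive libraries as well, and their part in this ratio was not tested.

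The genes whose pattern over the 6 libraries was most like that of Tet2 were Fchsd2, Rgs22, Smap1, Itgav and Adrbk2. Their centred log2 CPM differed from that of Tet2 by a root mean square of 0.039, 0.060, 0.061, 0.063 and 0.074 over the 6 libraries.

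TRIM28 and SETDB1 act in sequence on the same targets, and neither transcript passed the test. Trim28 (chromosome 7, 12999114 to 13031035, plus strand) was at 53.5, 60.9 and 49.7 CPM in the positive libraries, against 49.1, 40.5 and 43.3 CPM in the negative ones. It was the 1 member higher in the positive library in all 3 mice, as 19.8% of all genes were. Its groups did not overlap, as with 8.29% of genes higher in positive libraries, by a margin of less than 1 CPM between the positive library of mouse 3 and the negative library of mouse 1. The fractions differed by 0.30 in log2 units, SE 0.20 (edgeR, adjusted p = 0.611), with a 95% interval of -0.13 to 0.74. The members lower in all 3 mice were Dnmt3b, Tet1 and Tet2, as 18.8% of all genes were.

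Setdb1 (chromosome 3, 95323525 to 95357202, minus strand) was at 44.4, 73.3 and 52.2 CPM in positive and 40.5, 64.0 and 55.0 CPM in negative libraries. Both libraries of mouse 2 were high and both of mouse 1 low, and within each mouse the fractions lay close. edgeR gave a log2 fold change of 0.09 with an SE of 0.25 (adjusted p = 0.918), with a 95% interval of -0.45 to 0.63. Setdb1 overlaps the gene Cers2 on the other strand (up to 463 reads in a library), and without a stated strand setting such reads cannot be told apart. The same limit holds for Trim28, which overlaps Zbtb45 (up to 10 reads), and for Tet3, which overlaps B230319C09Rik (up to 17 reads). Tet3 also overlaps 5430434F05Rik on its own strand (up to 49 reads).

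**Figure D3:**
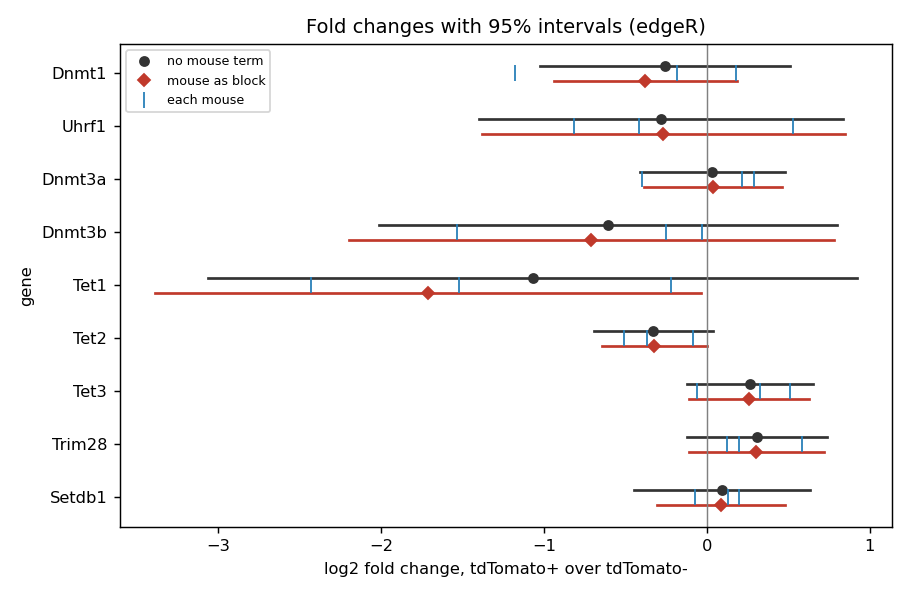
Log2 fold change of each member, tdTomato-positive over tdTomato-negative, with 95% intervals from edgeR without a mouse term (black circles) and with the mouse as a block (red diamonds); blue ticks are the ratios within each mouse after adding 0.5 CPM. All black intervals include 0, and the low-count members Uhrf1, Dnmt3b and Tet1 have the widest. Of the red intervals only that of Tet1 leaves out 0.

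Tet2 and Trim28 were the only members whose fractions did not overlap, in opposite directions, where 17.3% of all genes did not overlap. Their promoters are shown for their difference in CpG content, and a link of CpG content to direction was not tested. The 250 bases before the RefSeq start (GRCm38.p6) hold 51 CpG pairs at Tet2 and 17 at Trim28, beside a median of 6 over 32851 windows. Capitals mark CpG pairs, and both stretches lie outside GENCODE M21 exons.
Tet2, chr3:133544391-133544640, minus strand: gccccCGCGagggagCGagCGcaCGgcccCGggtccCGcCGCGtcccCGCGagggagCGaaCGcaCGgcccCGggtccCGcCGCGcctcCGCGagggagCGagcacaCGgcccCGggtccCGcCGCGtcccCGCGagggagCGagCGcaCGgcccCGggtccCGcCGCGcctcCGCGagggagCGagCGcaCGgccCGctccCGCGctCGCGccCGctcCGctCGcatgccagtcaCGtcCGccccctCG
Trim28, chr7:13023902-13024151, plus strand: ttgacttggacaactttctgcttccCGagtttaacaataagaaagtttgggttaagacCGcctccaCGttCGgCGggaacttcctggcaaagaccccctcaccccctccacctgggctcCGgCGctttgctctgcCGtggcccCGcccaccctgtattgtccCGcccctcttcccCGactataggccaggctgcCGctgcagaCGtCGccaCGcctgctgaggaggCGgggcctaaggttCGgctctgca
All 9 members matched the promoter table, with 14 windows in all. Their median was 17 CpG pairs, with a range of 2 to 51, and 9 of the 14 had an observed over expected CpG ratio of at least 0.6, against 34.0% of all windows. The methylation of these CpG pairs was not measured.

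The wider silencing machinery was set beside the members. Joined, 10 lists of cofactors, readers and partners held 98 genes that are not members, of which 85 passed the filter. The test of edgeR called none of the 85, as did DESeq2 and limma-voom, and 11 had an unadjusted p under 0.05, where 10.7% of all genes did. With the mouse as a block 1 was called, Atrx, where 3.15% of all genes were. The median log2 fold change of the 85 was -0.0039, and 42 lay above 0.

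HP1 proteins, the HUSH silencing complex and related heterochromatin factors held the 1 call. All 11 listed were kept, their median was -0.13, and 4 had an unadjusted p under 0.05, all lower, beside 10.7% of all genes in either direction. Atrx, a chromatin remodeller of repeats and telomeres, was at 288, 339 and 427 CPM in positive libraries, against 462, 570 and 538 CPM in negative libraries. The fitted log2 difference was -0.57 with an SE of 0.18 (edgeR, adjusted p = 0.272) and -0.59 with the mouse as a block (adjusted p = 0.0246), where 1.79% of all genes were called lower. Mphosph8, the HUSH subunit that reads methylated lysine 9 of histone H3, was at 44.9, 28.95 and 51.0 CPM in positive and 57.0, 70.3 and 76.8 CPM in negative libraries (edgeR adjusted p = 0.311). Smchd1, which keeps the inactive X chromosome silent, was at 77.9, 103 and 112 CPM in positive and 123, 144 and 147 CPM in negative libraries (edgeR adjusted p = 0.362). All positive libraries lay below all negative ones for each of these genes, as for 9.02% of all genes. With the block, the Atrx call was lost when mouse 1 (log2 fold change -0.56, edgeR adjusted p = 0.0801) or mouse 3 (-0.72, adjusted p = 0.281) was left out, and Mphosph8 was called when mouse 1 was (-0.95, adjusted p = 0.00444).

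Methyltransferases of histone H3 lysine 9 other than Setdb1, with their cofactors, had 7 of 8 genes kept and a median of -0.0093. Wiz, a zinc finger partner of the G9a complex, averaged 34.2 ± 7.41 CPM in positive and 19.8 ± 3.48 CPM in negative libraries, 0.79 higher on the log2 scale (edgeR adjusted p = 0.311). Ehmt2, which encodes G9a itself, averaged 23.8 ± 1.52 and 15.3 ± 2.83 CPM, and Suv39h1, an enzyme of constitutive heterochromatin, 10.3 ± 1.33 and 6.97 ± 1.40 CPM (n = 3 each, SD; adjusted p from edgeR = 0.429 and 0.606). These were the 3 genes of the list with the smallest p, and in each the groups did not overlap, as with 8.29% of all genes higher in positive libraries. Demethylases of the same residue had 9 of 10 kept and a median of 0.086. Among them Kdm4b was at 9.03 ± 1.39 CPM in positive and 4.13 ± 0.890 CPM in negative libraries (log2 fold change 1.12 ± 0.40, SE; edgeR adjusted p = 0.333). Kdm3b had a log2 fold change of 0.33 and Jmjd1c of -0.22 (edgeR adjusted p = 0.569 and 0.627).

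Polycomb repressive complex 2, which methylates lysine 27 of histone H3, had 10 of 11 genes kept and a median of -0.057. Ezh1, the catalytic subunit of resting cells, was at 70.8, 53.95 and 43.7 CPM in positive libraries, against 30.7, 31.7 and 32.4 CPM in negative libraries. It differed by 0.83 in log2 units with an SE of 0.23 (edgeR, adjusted p = 0.191, and 0.0512 with the mouse as a block). Mtf2 and Eed, accessory and core subunits, had log2 fold changes of -0.60 and -0.47 (edgeR adjusted p = 0.428 and 0.655).

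Partners of the DNA methyltransferases had 7 of 11 listed genes kept and a median of 0.073. Hells, a remodeller needed for methylation of repeats, averaged 2.25 ± 0.637 CPM in positive and 4.84 ± 2.19 CPM in negative libraries (SD, n = 3 each; edgeR adjusted p = 0.519). Uhrf2, the paralog of Uhrf1, was at 16.6, 26.7 and 27.2 CPM in positive and 31.8, 36.9 and 28.9 CPM in negative libraries (edgeR adjusted p = 0.565), and Zbtb24 stood at -0.27 on the log2 scale (edgeR adjusted p = 0.834). Reads that match Uhrf1 and Uhrf2 alike may be missing from both. All 8 readers of methylated CpG pairs were kept, with a median of 0.038. Zbtb4 averaged 106 ± 23.3 CPM in positive and 71.6 ± 10.7 CPM in negative libraries and Mbd1 22.4 ± 7.91 and 15.3 ± 3.88 CPM, both higher in 3 of 3 mice (SD, n = 3 each; edgeR adjusted p = 0.355 and 0.585). Of all genes, 19.8% were higher in all 3 mice. Zbtb38 stood at -0.20 on the log2 scale (edgeR adjusted p = 0.710).

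Genes that work with TET enzymes had 10 of 13 kept and a median of 0.098. Cxxc5, a CpG-binding protein of the TET network, averaged 34.7 ± 4.10 CPM in positive and 24.2 ± 4.70 CPM in negative libraries (SD, n = 3 each, edgeR adjusted p = 0.482). The groups of Cxxc5 did not overlap, as with 8.29% of all genes higher in positive libraries. Its relative Cxxc4 had a log2 fold change of -0.74 and Ogt, a sugar transferase bound by TET proteins, one of -0.21 (edgeR adjusted p = 0.627 and 0.731). The deacetylases and remodellers bound by TRIM28 were all 9 kept, with a median of 0.23 and 7 above 0. Hdac1, Mta2 and Chd4 had log2 fold changes of 0.44, 0.39 and 0.23 (edgeR adjusted p = 0.555, 0.691 and 0.691). Of 6 KRAB zinc finger genes 5 were kept, with a median of 0.073. Zfp57, which protects imprints, averaged 1.66 ± 0.443 CPM in positive and 5.82 ± 1.89 CPM in negative libraries (SD, n = 3 each; edgeR adjusted p = 0.238). Zfp809, which targets murine retroviruses, and Zfp445 had log2 fold changes of -0.23 and 0.12 (edgeR adjusted p = 0.776 and 0.879). The synthesis of the methyl donor had 9 of 11 genes kept and a median of -0.18, with Mat1a, Ahcyl1 and Mthfd1 at log2 fold changes of 0.55, -0.18 and -0.19 (edgeR adjusted p = 0.751, 0.789 and 0.842).

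**Figure D4:**
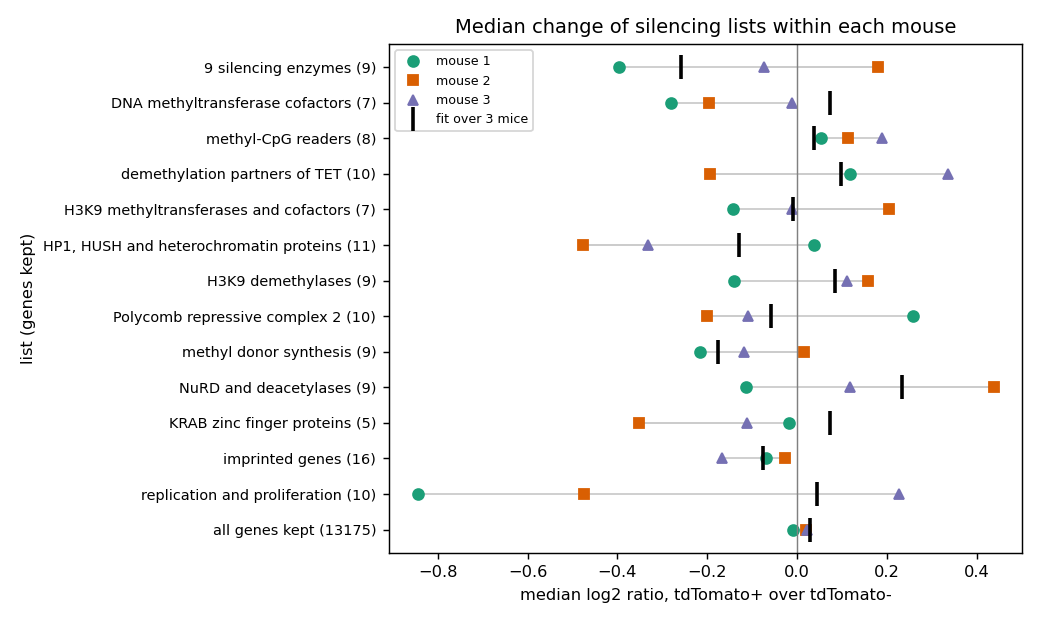
Median log2 ratio, tdTomato-positive over tdTomato-negative, within each mouse (coloured symbols) and in the fit over 3 mice (black ticks), for the 9 members, the lists with at least 5 genes kept and all genes kept; numbers in brackets are genes. For the 9 members mouse 2 lies above 0 and mice 1 and 3 below it, and the medians of all genes lie near 0.

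The calls lay among the germline partners of MIWI2, of which 3 of 10 listed genes were kept. Piwil4, which the sort selects for, rose (log2 fold change 1.36, edgeR adjusted p = 0.012), where 0.0455% of all genes were called higher, and Tex15 fell. In the model without a mouse term, the Piwil4 call was lost when both libraries of mouse 1, 2 or 3 were left out (log2 fold change 1.43, 1.25 and 1.41; edgeR adjusted p = 0.108, 0.130 and 0.165). It was also lost when the negative library of mouse 1 (1.44, adjusted p = 0.0651), that of mouse 2 (1.19, adjusted p = 0.0663) or the positive one of mouse 3 (1.30, adjusted p = 0.0752) was left out. With the mouse as a block, Piwil4 was called over 3 mice (edgeR adjusted p = 0.000223) and when mouse 1 or 2 was left out, but not when mouse 3 was (1.43, adjusted p = 0.0672). Tex15 (chromosome 8, 33516738 to 33585582, plus strand) encodes a nuclear protein that mouse fetal germ cells need for piRNA-directed DNA methylation of transposons. It had 0, 8 and 9 reads in positive libraries, against 95, 110 and 138 reads in the negative ones. In CPM this was 0, 1.27 and 1.43 in positive libraries and 18.4, 21.1 and 26.9 in negative libraries. The groups did not overlap, as with 9.02% of all genes lower in positive libraries. The fractions differed by -4.57 in log2 units, SE 0.64 (edgeR, adjusted p = 0.00693), where 0.577% of all genes were called lower. Tex15 was no longer called when the negative library of mouse 1 was left out (log2 fold change -4.69, edgeR adjusted p = 0.0542), nor when both libraries of mouse 2 (-4.92, adjusted p = 0.159) or of mouse 3 (-4.89, adjusted p = 0.122) were. Markers of alveolar type 2 cells fell alongside, with 6 of 9 called lower, and their part in the Tex15 result was not tested.

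Of the other germline partners, Gpat2 passed the filter and was not called. It was at 9.63, 3.32 and 2.22 CPM in positive and 1.16, 1.92 and 2.34 CPM in negative libraries (edgeR adjusted p = 0.462). Morc1, which mouse germ cells need to silence transposons, had 3, 4 and 5 reads in positive and 0, 1 and 1 reads in negative libraries, too few for the filter. Spocd1, the nuclear partner of MIWI2 in methylation, had 2 reads in the positive library of mouse 1 and none elsewhere, and Mael had no read in any library. The counts of Spocd1 and Mael are below the floor of 3 counts, so a lower level was not detectable at this depth.

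**Figure D5:**
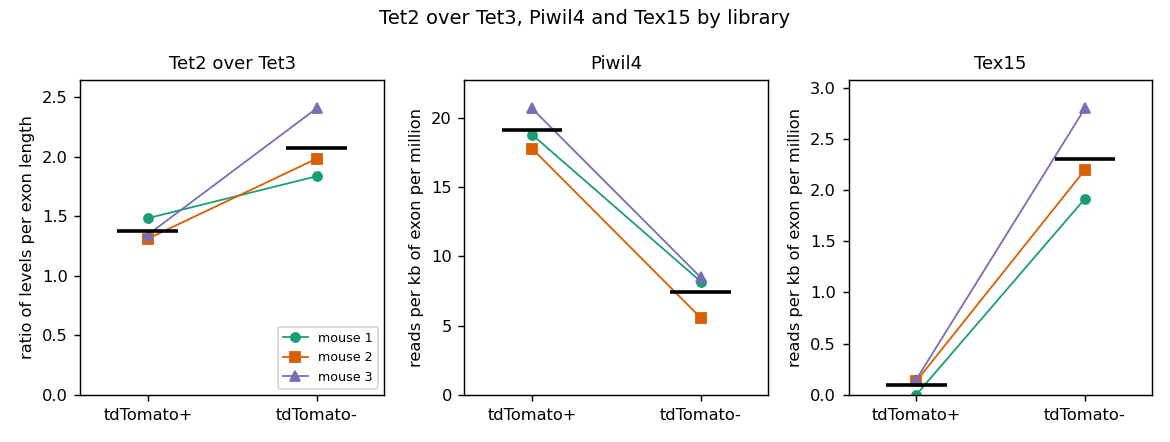
Ratio of Tet2 to Tet3 per exon length (left) and RPKM of Piwil4 (middle) and Tex15 (right), tdTomato-positive left and tdTomato-negative right in each panel; lines join the libraries of 1 mouse and black bars are means (n = 3 each). The Tet2 to Tet3 ratio and Tex15 are lower, and Piwil4 higher, in the positive library of all 3 mice. The ratio was chosen after the counts were seen.

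Transcripts of genes that silencing is known to hold down were also examined, though methylation itself was not measured. Of 15 germline genes kept off by promoter methylation in somatic cells, 2 were kept by the filter, and the summed level of the 15 was 6.80 to 10.004 CPM in positive and 12.5 to 14.6 CPM in negative libraries. Neither was called, while 1 had an unadjusted p under 0.05, beside 10.7% of all genes, and DESeq2 and limma-voom called none. Slc25a31, a testis ADP/ATP carrier, averaged 2.37 ± 0.168 CPM in positive and 5.42 ± 1.40 CPM in negative libraries, and Sycp3, a protein of meiotic chromosomes, 1.88 ± 0.729 and 3.93 ± 1.26 CPM (n = 3 each, SD; adjusted p from edgeR = 0.423 and 0.545). Of 22 imprinted genes 16 were kept, none was called by edgeR, DESeq2 or limma-voom, and 2 had an unadjusted p under 0.05, beside 10.7% of all genes. The median of the 16 was -0.075. Cdkn1c, an imprinted inhibitor of the cell cycle, was at 49.5, 128 and 101 CPM in positive libraries, against 36.9, 77.6 and 42.9 CPM in negative libraries. It was higher in 3 of 3 mice, as 19.8% of all genes were. edgeR gave a log2 fold change of 0.83 with an SE of 0.38 (adjusted p = 0.480). With the mouse as a block it was called at 0.80 (edgeR adjusted p = 0.0299), where 1.36% of all genes were called higher. This call was lost when mouse 2 (edgeR adjusted p = 0.0537) or mouse 3 (adjusted p = 0.532) was left out. With no filter, which called 413 genes, edgeR called Cdkn1c higher too (adjusted p = 0.0179). Igf2r averaged 205 ± 28.3 CPM in positive and 141 ± 10.9 CPM in negative libraries and Mest 3.89 ± 0.377 and 7.88 ± 1.05 CPM, neither with overlap between the groups (SD, n = 3 each; edgeR adjusted p = 0.256 and 0.407).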

How the data were processed

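The authors deposited integer counts of reads for each gene, with a file for each library. Tools named in the submitters' processing notes are HTSeq, STAR 2.4.2a, cutadapt 1.7.1, FastQC and DESeq2, with GRCm38.p4 and mm10 as builds; the strand setting is not given in the sources used here. Amplification with an Ovation kit, per the labels' protocols, means that reads are not independent molecules. The 5 HTSeq summary rows were left out: reads in no gene were 41.0% to 49.4%, ambiguous reads 1.31% to 1.99% and reads aligned to several places 8.26% to 12.0% of all rows.

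Fold changes on the log2 scale with their errors come from edgeR 4.0.16 (R 4.3.3), fitted to the deposited counts by quasi-likelihood, two-sided and robust, with TMM factors and filterByExpr (count minimum 10). Benjamini-Hochberg adjusted p-values under 0.05 over 13175 genes were called. No mouse term was in the model, so its p-values and intervals leave out the pairing by mouse. Both libraries of a number are from 1 mouse, per the labels, so the numbers pair the samples; deviations from group means correlated at 0.263, 0.254 and 0.346 within mice. The blocked model is given where it changes a call. Ratios within a mouse add 0.5 CPM. Exon lengths and positions come from GENCODE M21 (GRCm38) and promoters from RefSeq (GRCm38.p6). Motif and CpG counts used 250 bases before each start. Alternatives were other factors, filters and tools (DESeq2 1.42.0, limma 3.58.1), the block, no mitochondrial genes, and leaving out each library or mouse.

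The members and lists were chosen with earlier results of these data known. All members, and the 3 genes of each of 14 lists with the smallest p, are named; the Tet2 to Tet3 ratio, Dnmt3l, Spocd1 and Mael were chosen after values were seen.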

Additional observations from a re-analysis of the deposited data

How the results depend on the processing

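No member was called under any of the 21 alternatives. The number of genes called was 82. It was 413 with no filter, 245 with DESeq2, 415 with the mouse as a replicate block, and 633, 380 and 59 with that block and without mouse 1, 2 or 3. It was 34 to 113 when a single library was left out and 22, 30 and 23 without mouse 1, 2 or 3. The median log2 fold change of members was -0.26. It was 0.043 with the stricter filter, which left out Uhrf1, Dnmt3b and Tet1, and -0.36 to 0.084 when a single library was left out.

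Without TMM factors all genes kept had a median of 0.29 on the log2 scale, against 0.029 with them, and Dnmt1 (0.025), Uhrf1 (0.0064), Zbtb24 (0.0099), Zbtb38 (0.053), Ogt (0.052), Jmjd1c (0.036), Ahcyl1 (0.096), Mthfd1 (0.064) and Zfp809 (0.016) turned positive; of the genes called, 22 were then higher and 54 lower, against 6 and 76. Dnmt3a was -0.034 with upper quartile factors. Leaving out a single library gave Dnmt1 -0.62 to 0.084, Uhrf1 -0.55 to 0.023, Dnmt3a -0.067 to 0.16 and Setdb1 -0.14 to 0.24. Without mouse 1 Mat1a was -0.033, and Dnmt3a was -0.064 without mouse 2 and -0.089 without mouse 3. With the block, Uhrf1 was 0.018, Mat1a -0.075 and Zfp445 -0.012 without mouse 1, Dnmt3a was -0.054 without mouse 2 and -0.092 without mouse 3, and Ogt was 0.014 without mouse 3. Of the members and the genes named from the 14 lists, the block over 3 mice changed the calls of Atrx, Cdkn1c and Top2a and no other. It also changed calls of cell type markers, Foxj1, Tppp3 and Cfap126 among them. Except for the stricter filter, the cause was not tested. The few reads of Tet1, Dnmt3b and Uhrf1 limit what their values can show.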
